A study of Homo sapiens with 6 samples.

Results

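The stretch of human chromosome 4 from 60 to 75 Mb (hg19) was examined for accessible chromatin in CRAMP1-KO U2OS cells, which lack CRAMP1, and in wild-type (WT) U2OS cells, an established osteosarcoma line. Accessible sites were mapped by ATAC-seq, in which a transposase inserts sequencing adapters into open DNA, with 3 libraries of CRAMP1-KO and 3 of WT cells. Each library came from 50000 cells that were lysed with detergents, tagmented for 30 minutes and amplified over 7 PCR cycles. The labels give no allele, clone or culture of origin for the knockout or the replicates, so the spread between libraries may be technical. Peaks of the 6 deposited lists that overlapped by 1 bp or more were merged, and the members are the 863 merged regions, of 248031 in the genome, whose midpoint lies in the block. The flanks used for comparison, from 30 to 60 and from 75 to 110 Mb, held 4032 regions. The block was chosen by measured values of these libraries, namely a summit pileup of its shared sites that was higher in CRAMP1-KO. Every difference between genotypes inside it is therefore given as a description. Single sites were also called with limma, and nothing is read from those calls.

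CRAMP1 is known as a regulator of the genes for linker histone H1. Linker histones bind DNA where it enters and leaves the nucleosome and are richest in compact, gene-poor chromatin. The block is gene-poor in its first part, where ADGRL3, an adhesion receptor, and EPHA5, an ephrin receptor of axon guidance, lie in long stretches with few other genes. Compaction and linker histone were not measured here. Its second part holds clusters of tissue-restricted genes (epithelial serine proteases, UGT2 enzymes that glucuronidate steroids and drugs, caseins and enamel proteins, the albumin family and the CXC chemokines) between scattered housekeeping genes. Gene places were taken from windows written by hand for 54 genes of the block in hg19. The starts of 44 of them matched the spacing of a RefSeq gene table of GRCh38.p14 within 1 kb, and statements on gene starts use those.

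A few of the gene starts with a site shared by all 6 libraries are shown here, because 3 of the 5 strongest sites of the block lie at such starts and they showed little of the shift described below. The sequences are RefSeq promoters of GRCh38.p14, from 250 bases before to 50 bases after the annotated start, 5′ to 3′ on the gene's strand, and their coordinates are not those of hg19. Capitals mark matches, on either strand, to the motifs named next. The AP-1 motif was searched as TGANTCA. For the TATA box the letters were TATAAA. The CCAAT box was searched by the letters of its name. For NF-kB the search used GGANTTTCC.
CENPC at chr4:67545454-67545753, minus strand: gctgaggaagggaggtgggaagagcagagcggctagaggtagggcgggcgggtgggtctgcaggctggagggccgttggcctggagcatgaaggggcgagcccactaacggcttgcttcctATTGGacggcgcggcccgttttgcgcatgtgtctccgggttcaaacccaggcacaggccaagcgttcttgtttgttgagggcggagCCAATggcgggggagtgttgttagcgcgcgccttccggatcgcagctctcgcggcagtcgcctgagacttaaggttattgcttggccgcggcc
COX18 at chr4:73069667-73069966, minus strand: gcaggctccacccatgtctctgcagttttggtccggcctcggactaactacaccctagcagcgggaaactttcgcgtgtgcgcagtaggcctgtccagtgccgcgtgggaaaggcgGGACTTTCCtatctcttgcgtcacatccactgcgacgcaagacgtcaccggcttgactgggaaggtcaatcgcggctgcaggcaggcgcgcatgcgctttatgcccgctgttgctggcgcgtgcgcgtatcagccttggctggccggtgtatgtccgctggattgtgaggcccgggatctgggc
CXCL8 at chr4:73740319-73740618, plus strand: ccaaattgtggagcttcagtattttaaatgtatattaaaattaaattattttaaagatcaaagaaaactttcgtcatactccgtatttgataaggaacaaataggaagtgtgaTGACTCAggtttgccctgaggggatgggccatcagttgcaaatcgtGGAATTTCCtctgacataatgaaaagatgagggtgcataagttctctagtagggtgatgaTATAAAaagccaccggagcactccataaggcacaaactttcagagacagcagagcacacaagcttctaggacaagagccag
DCK at chr4:70993399-70993698, plus strand: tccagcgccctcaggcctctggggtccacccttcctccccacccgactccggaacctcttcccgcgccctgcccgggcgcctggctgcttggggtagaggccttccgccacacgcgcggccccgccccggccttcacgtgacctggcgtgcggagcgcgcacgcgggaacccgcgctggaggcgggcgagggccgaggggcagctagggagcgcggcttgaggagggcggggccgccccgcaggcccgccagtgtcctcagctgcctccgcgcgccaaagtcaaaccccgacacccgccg
The promoters of CENPC, a centromere protein, COX18, a mitochondrial insertase, and DCK, the kinase that salvages deoxycytidine, held 25, 27 and 37 CpG dinucleotides, against a median of 14 over the 35093 promoters of the table. That of CXCL8, the chemokine interleukin-8, held 4 CpG and matched AP-1, TATA and NF-kB letters, which occurred in 7.71%, 11.5% and 1.64% of all promoters. NF-kB letters also occurred once in COX18, and once each in the promoters of UTP3 and CXCL3, genes of the block whose sequences are not shown. CCAAT letters, found in 2 places in CENPC, occurred in 34.6%. A match to these letters is a description and not a bound site.

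The block was sparser than its flanks in every library of either genotype. In the CRAMP1-KO libraries it held 26.5, 30.7 and 33.1 peaks per Mb, and in the WT libraries 43.0, 23.4 and 21.3. The flanks held 31.0, 33.7 and 37.6 peaks per Mb in CRAMP1-KO and 48.5, 32.2 and 28.7 in WT. The log2 ratio of block to flank was -0.27 ± 0.14 (SD, n = 6 libraries), below 0 in 6 of 6 libraries. Peaks in the block were also narrower, with a log2 ratio of -0.12 ± 0.0464, and had a lower fold enrichment over local background, with a log2 ratio of -0.16 ± 0.053 (SD, n = 6 libraries), each in 6 of 6 libraries. No p-value is given for these ratios, because sparse stretches of the chromosome also had the higher pileup shift by which the block was chosen. For fold enrichment the log2 ratio was -0.00 once peaks below a −log10 q of 5 were dropped, and -0.069 in lists of equal length. The q score comes from the same pileup and background as fold enrichment. Dropping peaks by it therefore cannot show which peaks held the difference.

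Of the 863 regions, 216 (25%) had a peak in all 6 libraries and are called shared sites, against 37.3% of regions in the genome and 32.8% in the flanks. Another 337 regions (39%) had a peak in a single library, and 175 of these belonged to WT replicate 1. That library has the longest list in the series, with 198875 peaks against 132686 to 157997 in the other 5, and the lowest median fold enrichment, at 4.25. Regions with a peak numbered 398, 458 and 494 in CRAMP1-KO replicates 1, 2 and 3, and 628, 348 and 314 in WT replicates 1, 2 and 3. Shared sites lay a median of 40.5 kb apart in the block and 22.3 kb in the flanks.

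The share of a library's peaks that fell in the block overlapped between genotypes because of WT replicate 1. It was 29.8, 33.0 and 31.5 per 10000 peaks in CRAMP1-KO and 32.4, 23.1 and 24.1 in WT, with means of 31.4 ± 1.64 and 26.6 ± 5.10 (SD, n = 3 each). The means differed by 4.85 per 10000 over all libraries and by 7.78 when WT replicate 1 was left out. By covered bases the block took 22.7, 24.6 and 23.7 per 10000 in CRAMP1-KO and 24.9, 18.4 and 19.1 in WT, again with WT replicate 1 inside or above the CRAMP1-KO range.

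Summit pileup, the number of reads or fragments stacked at the top of a peak, differed between genotypes at shared sites of the block and of the flanks. The units are called fragments below, because the sources do not state which of them the peak caller stacked. Pileup is given as relative pileup, the pileup divided by the library's median over all 92505 sites shared by 6 libraries. A value of 1 is thus a typical shared site of that library. The block's shared sites had a median relative pileup of 0.959, 0.935 and 0.938 in CRAMP1-KO and 0.732, 0.695 and 0.717 in WT. All 3 CRAMP1-KO libraries were above all 3 WT libraries, and WT replicate 1 was not apart from the other WT libraries here. The log2 medians averaged -0.08 ± 0.0198 in CRAMP1-KO and -0.48 ± 0.0371 in WT (SD, n = 3 each), a difference of 0.40. All 3 CRAMP1-KO libraries were above all 3 WT libraries in the flanks as well. The medians of relative pileup there were 0.926, 0.919 and 0.938 in CRAMP1-KO and 0.856, 0.828 and 0.868 in WT. The log2 medians of the flanks averaged -0.11 ± 0.0142 in CRAMP1-KO and -0.23 ± 0.0352 in WT (SD, n = 3 each), a difference of 0.13.

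This difference of library medians is larger than the change of a typical site. Taken site by site, the median difference in log2 pileup of CRAMP1-KO minus WT was 0.19 in the block (quartiles -0.03 and 0.47), 0.01 in the flanks and -0.07 over all shared sites. The difference was above 0 at 157 of 216 sites (72.7%), against 51.5% in the flanks and 41.3% in the genome. The spread between libraries of 1 genotype at a single site was a median SD of 0.144 in CRAMP1-KO and 0.153 in WT on the log2 scale.

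Single sites were compared with limma over all 92505 shared sites. In the block 68 of 216 sites (31.5%) were called higher and 5 (2.31%) lower in CRAMP1-KO (limma, adjusted p under 0.05), beside 9.36% higher and 15.5% lower over the genome. Scaled to the flanks in place of all shared sites, the calls in the block were 46 higher and 24 lower, so that 65.7% of calls were higher in place of 93.2%. That scaling moves all sites alike: 21.3% of block sites were then called higher and 11.1% lower, beside 5.49% and 31.4% over the genome and 9.53% and 21.2% in the flanks. The 3 CRAMP1-KO values were all above the 3 WT values at 85 sites (39.4%), where the genome gave 14.4%, and below at 15 sites (6.94%), where it gave 23.7%. The rule that picked the block used this contrast, so nothing is read from these counts.

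**Figure D1:**
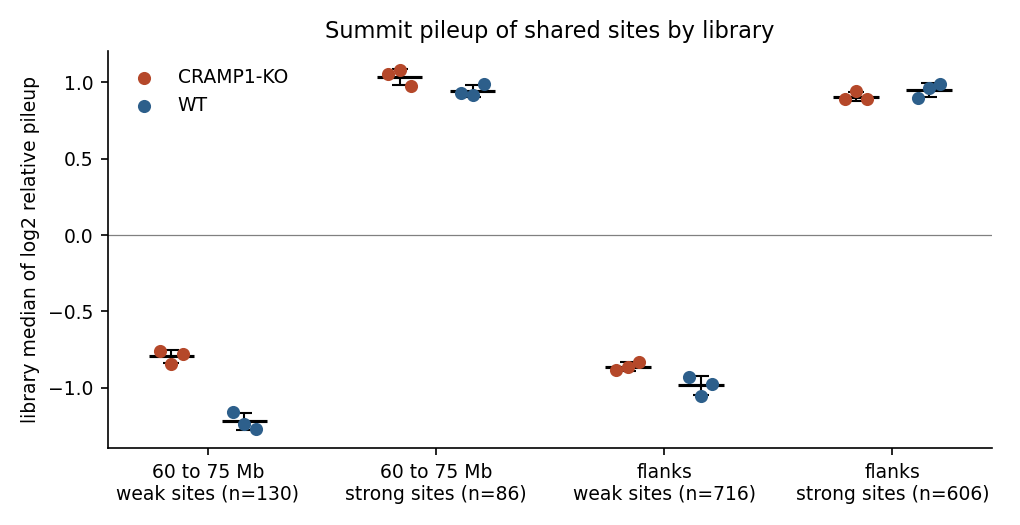
Library medians of log2 relative pileup (y axis) at weak and strong shared sites of the block and of the flanks, for CRAMP1-KO (left in each pair) and WT; points are libraries, and bars give the mean and SD of 3. The libraries of the genotypes do not overlap at weak sites, with means 0.42 apart in the block and 0.12 in the flanks.

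Within the block, the difference between genotypes was larger at weak sites than at strong ones. Shared sites were divided at the median, over the genome, of their mean log2 relative pileup in the 6 libraries, which put 130 block sites (60.2%) in the weak class and 86 in the strong class. Weak block sites had a median relative pileup of 0.590, 0.556 and 0.583 in CRAMP1-KO and 0.448, 0.425 and 0.415 in WT. Strong block sites had 2.07, 2.11 and 1.97 in CRAMP1-KO and 1.90, 1.89 and 1.98 in WT. The 3 libraries of each genotype were fully apart at weak block sites, whereas at strong ones WT replicate 3 lay above CRAMP1-KO replicate 3. At weak flank sites they were fully apart as well, with a median relative pileup of 0.541, 0.548 and 0.5625 in CRAMP1-KO and 0.526, 0.483 and 0.509 in WT. Site by site, the median difference was 0.31 on the log2 scale at weak block sites, with 107 of 130 (82.3%) above 0, and 0.05 at strong ones, with 50 of 86 (58.1%) above 0. Over the genome 49.7% of weak and 33.0% of strong shared sites were above 0, and in the flanks 61.9% and 39.3%. Both classes of the block were thus above the shares of their own class. The small difference at strong sites was -0.07 when scaled to the flanks, while that at weak sites was 0.18.

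A weak site differed more than a strong one in the flanks and the genome as well. Weak flank sites had a median difference of 0.11 on the log2 scale and strong flank sites -0.06, and over the genome the values were -0.00 and -0.11. With the shared sites of the genome cut into 4 equal classes of strength, the block lay above both in each class. From the weakest to the strongest class the median differences were 0.27, 0.36, 0.13 and -0.05 in the block (74, 56, 44 and 42 sites). They were 0.10, 0.12, 0.05 and -0.12 in the flanks, and -0.02, 0.02, -0.04 and -0.15 over the genome. The excess of the block over the flanks was thus present at like strength, with its largest value in class 2. Whether it exceeds the spread between such blocks was not tested.

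**Figure D2:**
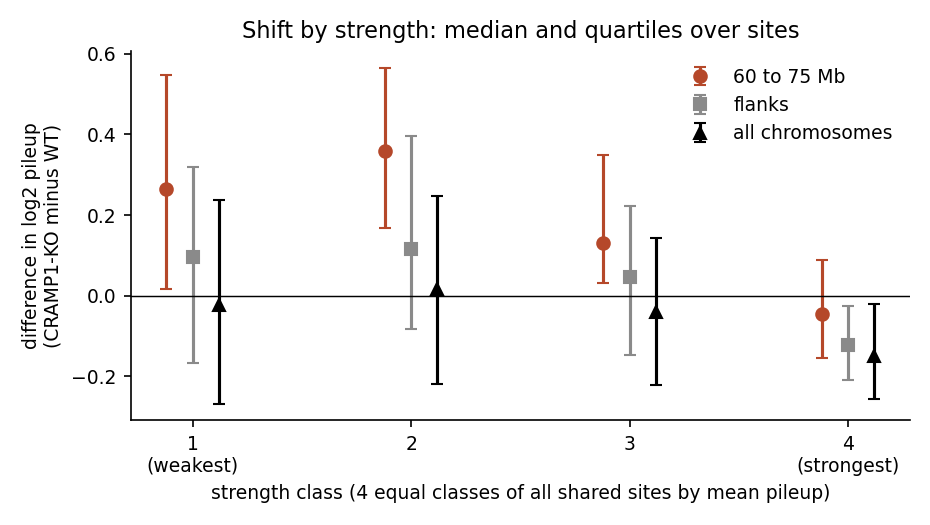
Difference in log2 pileup of CRAMP1-KO minus WT (y axis) by strength class (x axis, 4 equal classes of all shared sites from weakest to strongest); symbols are medians over sites and bars run from the lower to the upper quartile. The block lies highest in each class, with 0.36 in class 2 and -0.05 in class 4.

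The sites at the ends of the range were picked by their difference, so the gaps between genotypes at them follow from that choice. The highest difference, 1.70 on the log2 scale, was at 60363280 to 60364033, outside the genes listed. Its relative pileup was 0.721, 0.742 and 0.781 in CRAMP1-KO and 0.227, 0.218 and 0.245 in WT, so the groups were far apart. A region with a peak in each CRAMP1-KO library and in no WT library followed directly, at 60364211 to 60364499, a neighbour picked out after its values were seen. The next highest lay at 73075478 to 73075791, with 1.03, 1.15 and 1.01 in CRAMP1-KO and 0.351, 0.448 and 0.547 in WT, and at 63352878 to 63353307, with 0.344, 0.532 and 0.448 in CRAMP1-KO and 0.227, 0.184 and 0.189 in WT. All 3 were weak sites without overlap between genotypes. The lowest difference, -0.54, was at a strong site at 69226738 to 69227405, with 2.39, 2.74 and 2.29 in CRAMP1-KO and 3.23, 3.63 and 3.92 in WT. Weak sites at 74195658 to 74196132 and, inside ANKRD17, at 73964621 to 73965994 had differences of -0.48 each. Pileups of these 5 weak sites ran from 10 to 97 fragments, which limits their precision.

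Sites at gene starts, nearly all of them strong, showed little of the shift, as did other sites of the strongest class. Of 44 genes with a checked start, 17 had a shared site within 1 kb of it, in 18 sites, 17 of them strong. They included all 9 checked housekeeping genes, 2 of 9 chemokine genes (CXCL8 and CXCL3), ADGRL3 and EPHA5, and none of the 5 epithelial protease, 4 casein, mucin and enamel or 3 albumin family genes that could be checked. Over the 18 sites the median difference was -0.07 on the log2 scale, with 6 above 0. At none of them was each CRAMP1-KO value above each WT value, beside 14.4% over the genome, and at 5 (27.8%) each was below, beside 23.7%. In the strongest of the 4 classes of strength, described above, which holds 15 of the 18 sites, the shares over the genome were 5.69% and 36.4%. The median stayed below 0 under both other scalings, at -0.19 scaled to the flanks and -0.05 scaled to the lowest background. Strong sites away from a checked start, 69 in number, had a median difference of 0.10, with 45 above 0. That median turned to -0.02 when scaled to the flanks. In the strongest class alone, 27 sites away from a start had a median of -0.01, with 12 above 0. The 15 at a start had -0.10, with 3 above 0, where the class had -0.12 in the flanks and -0.15 over the genome. The part of strength in the values at gene starts was not tested.

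Among housekeeping genes, the start of UTP3, a gene of ribosome assembly, carried the highest pileup of the block, from 71553458 to 71554807. Its relative pileup was 7.26, 8.40 and 6.89 in CRAMP1-KO and 6.99, 7.80 and 8.45 in WT, ranges that overlap. The start of CENPC, at 68410953 to 68411528, had 6.69, 8.03 and 6.50 in CRAMP1-KO and 6.53, 7.90 and 8.34 in WT, also overlapping. At DCK the site at 71858667 to 71860081 had 5.08, 5.24 and 5.43 in CRAMP1-KO and 5.48, 6.24 and 6.38 in WT, every CRAMP1-KO library being just below every WT library. The largest difference at a housekeeping start was -0.32 at ANKRD17, a gene for an ankyrin repeat protein, with 3.21, 3.94 and 3.76 in CRAMP1-KO and 4.47, 4.31 and 4.79 in WT. COX18 stood at 4.48, 5.21 and 4.69 in CRAMP1-KO and 5.30, 5.06 and 5.81 in WT. The remaining 4, at UBA6, YTHDC1, RUFY3 and MOB1B, had differences from -0.29 to -0.14. The other 2 sites among the 5 strongest of the block lay outside the genes listed, at 69235014 to 69235766 and 73496741 to 73497436, with differences of -0.19 and -0.01.

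At the starts of both receptor genes of the gene-poor part with a shared site, the values overlapped between genotypes. ADGRL3 had a site of 3534 bp at its start, from 62065703 to 62069236, with 2.46, 2.74 and 2.40 in CRAMP1-KO and 2.41, 2.00 and 2.06 in WT, a difference of 0.23 with WT replicate 1 inside the CRAMP1-KO range. EPHA5, at 66533975 to 66536702, had 4.75, 4.10 and 4.39 in CRAMP1-KO and 4.28, 4.30 and 4.45 in WT, which overlap. Over the 20 shared sites in or at the start of ADGRL3, TECRL and EPHA5, the median difference was 0.18, with 16 above 0. At 8 of the 20 (40%) each CRAMP1-KO value was above each WT value, close to the 39.4% of all block shared sites, beside 14.4% over the genome.

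Among the chemokine genes, CXCL8 had 1.39, 1.68 and 1.42 in CRAMP1-KO and 1.32, 1.40 and 1.32 in WT at 74606118 to 74606472, a difference of 0.15 with overlapping libraries. CXCL3 had 3.66, 4.50 and 3.75 in CRAMP1-KO and 3.97, 3.82 and 3.98 in WT at 74903855 to 74905306, a difference of 0.01. The sole weak site within 1 kb of a checked start was near UGT2B15, at 69537055 to 69537688, with 0.377, 0.468 and 0.365 in CRAMP1-KO and 0.258, 0.195 and 0.377 in WT. UGT2B15 has close paralogs in the same cluster, and the treatment of reads that map to several copies is not given in the sources used here. At the starts of ADAMTS3, NPFFR2 and RASSF6 the differences were between -0.09 and 0.03.

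**Figure D3:**
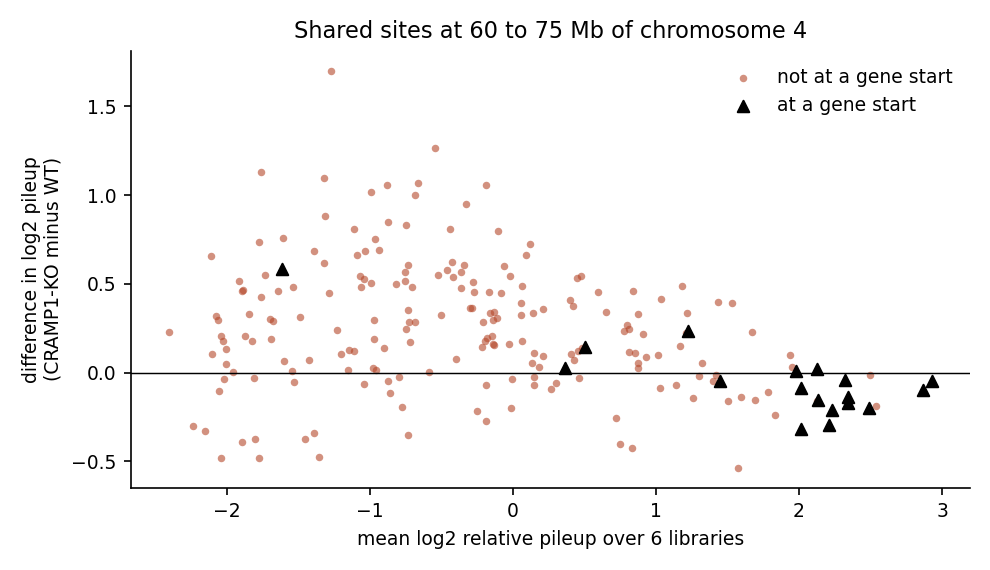
Each of the 216 shared sites of the block by its mean log2 relative pileup over 6 libraries (x axis) and its difference in log2 pileup of CRAMP1-KO minus WT (y axis); triangles mark the 18 sites within 1 kb of a checked gene start. Differences are mostly above 0 to the left, and 15 of the triangles lie in the strongest of 4 classes with a median of -0.10.

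The local background of each summit, the fragment rate that the peak caller expected there, was higher in CRAMP1-KO at strong block sites, where the pileup differed little. At strong block sites the log2 background, scaled to the library's median over all shared sites, averaged 0.36 ± 0.0587 in CRAMP1-KO and 0.08 ± 0.0395 in WT (SD, n = 3 each), and all CRAMP1-KO libraries were above all WT libraries. Site by site the background differed by 0.21 there, more than the pileup, which differed by 0.05. Median fold enrichment at strong block sites was 16.5 ± 1.09 in CRAMP1-KO and 16.8 ± 0.70 in WT (SD, n = 3 each). Site by site, the median difference in fold enrichment at strong sites was -1.41 in the block, -1.01 in the flanks and -0.86 over the genome. The means of library medians at strong sites differed by -0.29 in the block, -1.24 in the flanks and -0.83 over the genome. The lower fold enrichment in CRAMP1-KO at strong sites was thus not confined to the block. At the median weak site the background stood at the lowest value of the library, below which the peak caller does not go, and the difference was -0.02. At the 16 weak sites whose background was above that minimum in all 6 libraries, background and pileup differed by 0.28 and 0.40. In the flanks the background of strong sites differed by 0.06. The part of the local background in the pileup shift was not tested.

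Along the chromosome, all 15 bins of 1 Mb in the block had a median difference above 0, from 0.00 at 71 Mb to 0.48 at 60 and 61 Mb. The bin at 71 Mb, where UTP3, RUFY3, MOB1B and DCK lie, held 20 shared sites, 10 of them above 0. In stretches of 5 Mb, the median difference was 0.33 at 60 to 65 Mb (50 sites), 0.18 at 65 to 70 Mb (60 sites) and 0.15 at 70 to 75 Mb (106 sites). The block's values were not confined to it. The bin before it, at 59 Mb, had 0.40 over 5 sites, and bins at 31, 32 and 36 Mb had 0.57, 0.49 and 0.53. Flank bins with at most 20 shared sites had a median of 0.19 (36 bins, 32 above 0), close to 0.21 for the 13 such bins of the block. Flank bins with more than 20 had -0.03 (27 bins, 8 above 0), and the 2 such bins of the block, at 73 and 74 Mb, had 0.29 and 0.19. Over the 63 flank bins with a shared site, Spearman's rho between the number of shared sites and the median difference was -0.62, a description of bins that share the same 6 libraries.

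**Figure D4:**
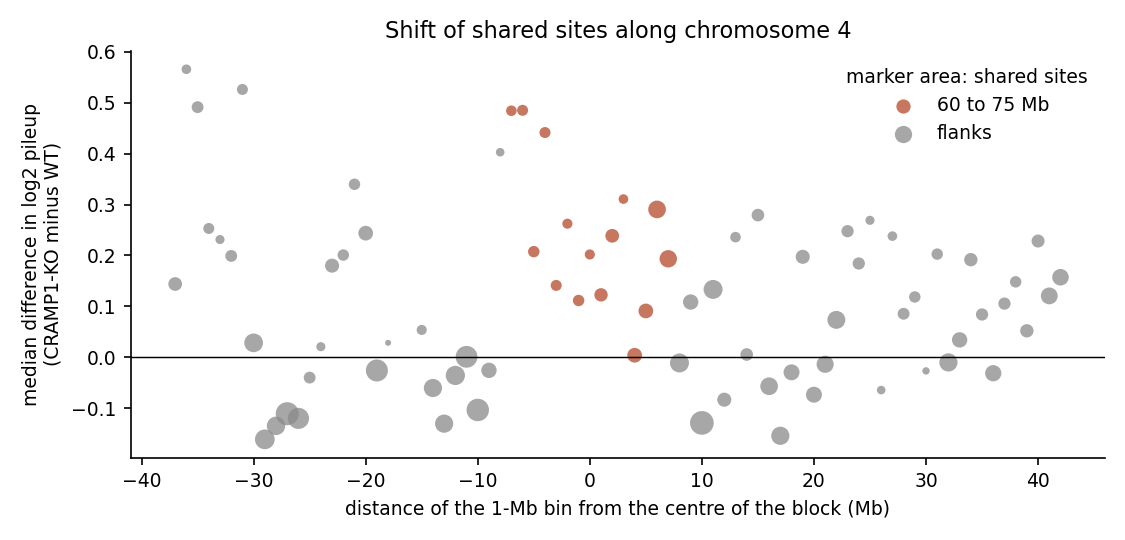
Median difference in log2 pileup of CRAMP1-KO minus WT over the shared sites of each 1-Mb bin (y axis) by the bin's distance from the centre of the block (x axis), with marker area growing with the number of shared sites. The 15 bins of the block lie between 0.00 and 0.48, and sparse flank bins, at the left edge above all, reach 0.57.

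The limits of the block fall among sites of mixed values. The shared sites just inside the lower limit, at 60026400 to 60027240 and 60191467 to 60191854, had differences of 0.74 and 0.30. Those just outside, at 59642889 to 59643181 and 59957077 to 59957789, had -0.06 and -0.12. At the upper limit, sites just inside at 74982782 to 74983248 and 74999595 to 75000236 had -0.06 and 0.34, and sites just outside at 75023192 to 75024229 and 75032413 to 75033028 had -0.03 and -0.08.

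Peaks at shared sites were wider in CRAMP1-KO. Their median width in the block was 508.5, 464.5 and 553 bp in CRAMP1-KO and 430, 426 and 354.5 bp in WT, or 509 ± 44.3 and 404 ± 42.5 bp (SD, n = 3 each), and the libraries did not overlap. Site by site the median difference was 56.5 bp, and 177 of 216 sites (81.9%) were wider. In the flanks the median difference was 44.7 bp with 77% of sites wider, and over the genome 41.7 bp with 72.4% wider. Flank library medians did not overlap either, at 519, 493 and 537.5 bp in CRAMP1-KO and 478, 472.5 and 405 bp in WT. Every CRAMP1-KO peak was wider than every WT peak at 57 block sites (26.4%) and narrower at 1 (0.463%), beside 19.4% and 2.95% over the genome. Weak block sites were 432 ± 61.6 bp wide in CRAMP1-KO and 324 ± 40.5 bp in WT, and strong ones 641 ± 44.2 and 562 ± 23.3 bp (SD, n = 3 each). Site by site, width differed by 64.7 bp at weak and 43.5 bp at strong block sites. At weak and strong sites of the flanks it differed by 46.7 and 42.7 bp, and over the genome by 33.7 and 47.7 bp. The narrowest peak of the whole list was 163, 158 and 168 bp in CRAMP1-KO replicates 1, 2 and 3. In WT replicates 1, 2 and 3 it was 135, 163 and 147 bp. The part of this lower limit in the width differences was not tested.

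**Figure D5:**
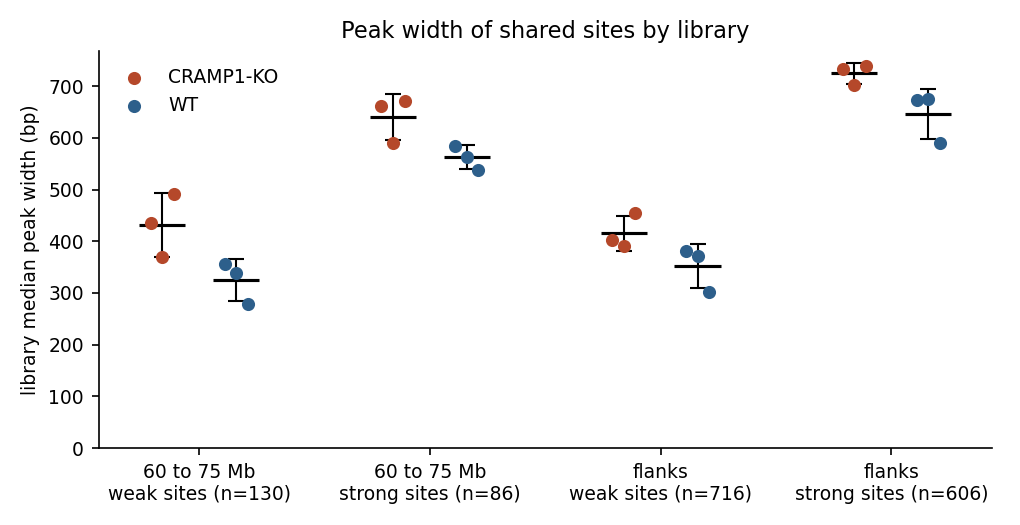
Library medians of peak width in bp (y axis) at weak and strong shared sites of the block and of the flanks, for CRAMP1-KO (left in each pair) and WT; points are libraries, and bars give the mean and SD of 3. Peaks of CRAMP1-KO libraries are wider in all 4 classes, by 108 bp between means at weak block sites.

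Sites called in a single genotype were few. CRAMP1-KO-only regions, with a peak in each of the 3 libraries and in none of WT, numbered 16 (1.85% of the block), beside 0.767% over the genome and 1.02% in the flanks. WT-only regions, by the reverse rule, numbered 4 (0.463%), beside 1.14% over the genome and 0.818% in the flanks. The first count was 41 without WT replicate 1, and 27 and 29 without CRAMP1-KO replicate 1 or 2. With all lists cut to equal length it was 16, as with the full lists. The second was 8 and 13 without CRAMP1-KO replicate 2 or 3, and 7, 9 and 11 without WT replicate 1, 2 or 3. Leaving out a library loosens both rules. Shares over the genome were computed for the full lists and all 6 libraries alone, so nothing is read from the counts under other settings.

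The strongest CRAMP1-KO-only region, at 62398945 to 62399171 inside ADGRL3, had pileups of 45, 50 and 79 fragments and a median −log10 q of 40.6. Its peaks spanned 194, 173 and 204 bp. The next, at 69957783 to 69958217, had 27, 37 and 42 fragments, and that at 61713327 to 61713707 had 29, 28 and 48. Regions at 67968719 to 67969181 and 66733679 to 66734209 followed, with a median −log10 q of 14.6 and 11.0. These 5 were chosen as those with the highest median q score of their kind, and none lay at a checked gene start. Over all 16 the median pileup per region ran from 12 to 50 fragments with a median of 21, so they were weak sites, where a shared site of the same libraries had a median of 61, 62 and 96 fragments. Of the 16, 7 lay at 60 to 65 Mb, 4 at 65 to 70 Mb and 5 at 70 to 75 Mb. By midpoint, 3 lay inside listed genes, 2 in ADGRL3 and 1 in SULT1B1, a sulfotransferase gene.

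The 4 WT-only regions were weaker. They lay at 67786363 to 67786654, 68417966 to 68418343, 71738713 to 71739060 and 64406728 to 64407273, outside listed genes. Their median pileups ran from 13 to 17 fragments, and their median −log10 q from 2.59 to 3.97, against 2.79 to 40.6 for the CRAMP1-KO-only regions. When peaks below a −log10 q of 5 were dropped, the block held 11 CRAMP1-KO-only regions and 1 WT-only region. The shares over the genome at that limit were not computed.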

How the data were processed

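The genome build was hg19 and the tools named were MACS3, BWA 0.7.17-r1188, cutadapt 3.4 and bcl2fastq 2.20.0, per the submitters' processing notes. Peak-calling settings, and what was done with duplicate, mitochondrial and multi-mapping reads, are not stated there. The authors deposited 1 peak list per library, without pooling, with a score (10 times −log10 q, truncated, in nearly all rows), a fold enrichment ratio of summit pileup to local background, and −log10 p and −log10 q against that background.

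Pileup and background were solved for each summit from the deposited fold enrichment and Poisson −log10 p. All pileups came out whole within 0.01, and the solver was tested on simulated peaks. Total reads are unknown, so no counting interval is given. For a region with several peaks in a library the highest was used. Chromosomes 1 to 22 and X entered.

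The log2 relative pileup of 92505 shared sites was fitted with limma 3.58.1 in R 4.3.3 on genotype, two-sided, with a variance trend, Benjamini-Hochberg adjustment and a threshold of 0.05, and the fit was checked on simulated data. Block and flank were compared by log2 ratios per library; sign-flip p-values planned for them are not reported, because the choice of the block bears on these ratios. Regions were named by rule: the 5 highest pileups, the 3 highest and lowest differences, genotype-only regions (5 per kind where over 12), sites at the limits and at gene starts. Members, gene lists and tests were chosen with earlier results of these data known. Gene windows were written by hand from memory and checked only by spacing. Sequences of the peaks were not used here. Other tools were Python 3.11.15, numpy 2.4.6, pandas 2.3.3, scipy 1.17.1 and matplotlib 3.10.9.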

Additional observations from a re-analysis of the deposited data

How the results depend on the processing

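The pileup shift of block sites kept its direction under every setting tried, with values from 0.36 to 0.43 on the log2 scale when a library was left out. It was 0.28 scaled to the flanks, 0.34 with peaks below a −log10 q of 5 dropped, 0.31 in lists of equal length and 0.19 as the median of per-site differences, an alternative chosen after seeing the data. Scaling to the flanks moves the median of all shared sites by -0.13. The shift of weak sites was 0.30 scaled to the flanks, 0.31 by per-site differences and 0.36 to 0.43 without a library. That of strong sites was -0.032 scaled to the flanks, 0.16 at the q limit and 0.09 to 0.14 without a library. The cause of these movements was not tested. Sites called higher by limma numbered 41 scaled to the lowest background and 53 to 65 without a library, against 68. Scaled to the lowest background these were 19.0% of block sites, beside 4.74% over the genome. Without a library they were 22.8% to 29.6%, beside 6.71% to 8.44%, and in the main setting 31.5%, beside 9.36%. Replicate numbers did not pair the libraries: deviations of same-numbered libraries correlated at 0.056, 0.062 and -0.09. With a replicate block limma called 66 higher (30.6% of block sites, beside 9.20% over the genome). The width difference ranged from 72.8 to 120.2 bp and the share difference from 3.14 to 7.78 per 10000 without a library. CRAMP1-KO-only regions numbered 17 to 41 and WT-only regions 5 to 13 without a library. WT-only regions were 1 at the q limit and 2 in lists of equal length. For these counts of genotype-only regions the shares over the genome were not computed. The log2 ratio of block to flank was -0.30 to -0.23 for peaks per Mb, -0.13 to -0.11 for width and -0.17 to -0.14 for fold enrichment without a library. For fold enrichment it was -0.00168 at the q limit and -0.069 in lists of equal length.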
